A study of Mus musculus with 8 samples.

Results

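The genes of the Sam68 and mTOR pathway, Khdrbs1, Khdrbs3, Mtor, Rptor, Rictor, Mlst8, Deptor, Rps6kb1 and Eif4ebp1, were measured in mouse white adipose tissue 2 h after endostatin was injected. They were chosen by name, for the known action of Sam68 on Mtor splicing, but with earlier results of these data known. They are 9 of 37046 genes and 54 of 115620 transcripts in the files. Each of the 1910 transcripts not matched to a gene was counted as a gene of its own. In the endostatin group, wild-type female C57BL/6J mice received 50 mg/kg endostatin, a collagen XVIII fragment that restrains the growth of blood vessels, through the tail vein. In the control group, mice of the same strain, sex and genotype received PBS, and food was withheld from both groups between injection and tissue collection. Each group had 4 libraries, 2 in each of 2 labelled batches, and no label gives the age of the mice. The labels call the tissue epididymal although the mice were female. Which mouse gave which library is not stated, so the p-values measure only the spread between these samples, part of which may be technical.

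Sam68, the product of Khdrbs1, is an RNA-binding protein that sets how some transcripts are spliced. In mice that lack it, intron 5 of Mtor is kept more often, which yields a short messenger for a truncated protein, and fat cell formation is impaired. Endostatin has been reported to bind Sam68 in fat cell precursors and to interfere with its contact with Mtor intron 5, so the question here is whether the levels or the transcripts of these genes differ in the tissue soon after an injection. mTOR is a kinase that works in 2 complexes: mTORC1, with raptor (Rptor), drives protein and lipid synthesis, and mTORC2, with rictor (Rictor), acts on AKT.

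No difference between the groups was detected for any of the 9 genes, or for any of the 34 of their 54 transcripts that could be tested for level or the 32 that could be tested for share. All 9 passed the count filter. None was called at an adjusted p under 0.05 with edgeR's quasi-likelihood test, where 0% of the 15184 tested genes were called, and none had an unadjusted p under 0.05, against 3.19% of tested genes. All 9 log2 fold changes were negative, against 53.4% of tested genes, and their median was -0.07 against -0.01 over all tested genes. With offsets for transcript length 7 of the 9 were negative and the count fell to 5 when control 1 and control 4 were left out. The CPM (estimated counts scaled to the TMM-corrected library size) of the groups overlapped for every one of the 9, against 1.64% of tested genes whose groups did not overlap.

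The transcripts that the known action of Sam68 concerns are shown first by the places where they part from the main transcript. In mouse GENCODE M21 (GRCm38, a build older than the one the submitters name), Mtor lies on the plus strand of chromosome 4, and Mtor-202 is the full-length transcript of 58 exons. Mtor-201 runs past the end of exon 5 for 221 bases of intron 5 and reaches a stop codon after 66 of them, so that it codes over 768 bases, against 7647 in Mtor-202. Below, the lower-case letters are the shared end of exon 5, and the capitals are intron 5 up to and including the stop codon in Mtor-201 (chr4:148454753-148454818) and the start of exon 6 in Mtor-202 (chr4:148455985-148456050).
Mtor-201: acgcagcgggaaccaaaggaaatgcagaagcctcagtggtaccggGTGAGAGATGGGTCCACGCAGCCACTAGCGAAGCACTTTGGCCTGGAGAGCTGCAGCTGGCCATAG
Mtor-202: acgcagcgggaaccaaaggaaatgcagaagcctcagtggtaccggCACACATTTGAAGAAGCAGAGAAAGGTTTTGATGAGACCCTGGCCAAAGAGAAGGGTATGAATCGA

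Rps6kb1 codes for S6K1, a kinase that mTORC1 activates, and its splicing is likewise known to depend on Sam68 and the splicing factor Srsf1 during fat cell formation. Rps6kb1-207, on the minus strand of chromosome 11, has 15 exons and codes over 1575 bases, and the short form Rps6kb1-202 leaves it after exon 6 and codes over 948 bases. The lower-case letters are the shared end of exon 6. The capitals are the first exon of the short form that Rps6kb1-207 lacks (chr11:86517350-86517392) and the start of the next exon of Rps6kb1-207 (chr11:86516149-86516191).
Rps6kb1-202: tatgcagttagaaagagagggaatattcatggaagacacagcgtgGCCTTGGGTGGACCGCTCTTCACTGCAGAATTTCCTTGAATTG
Rps6kb1-207: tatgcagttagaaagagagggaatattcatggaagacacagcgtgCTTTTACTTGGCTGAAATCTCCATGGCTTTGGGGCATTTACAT

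The libraries held 17197721 to 23786594 estimated counts in the endostatin group and 15826783 to 19221886 in the control group. The 6 adipocyte markers summed to 19780 to 24390 TPM (an abundance scaled for transcript length and library total) in endostatin libraries and 13430 to 28770 TPM in control libraries, with control 3 the lowest. The 6 oviduct and uterus markers stood out in endostatin 4 (348 TPM) and control 3 (411 TPM), with sums of 4.49 to 26.0 TPM elsewhere, and these were the libraries farthest out on the first principal component. Skeletal muscle markers were highest in control 4 (386.5 TPM) and control 1 (192 TPM), with 35.0 to 107 TPM elsewhere. Hepatocyte markers summed to 270, 395, 22.1 and 752 TPM in endostatin libraries 1 to 4, against 18.3 to 122 TPM in control libraries. Macrophage markers were highest in endostatin 3 (1062 TPM) and endostatin 4 (1171 TPM), with 518 to 772 TPM elsewhere. The part of these differences in the values below was not tested, and in whole tissue fewer cells of a type and less RNA per cell cannot be told apart.

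Ordered by mean TPM over the 8 libraries, Eif4ebp1 was far above the rest at 342 ± 73.5 TPM (SD). Khdrbs1 (40.0), Mtor (38.1), Deptor (37.2), Rptor (36.2) and Rps6kb1 (34.8) followed within a narrow band, and the ranges of each neighbouring pair among them overlapped. Rictor (16.6) and Mlst8 (16.0) lay lower, and Khdrbs3 was lowest at 8.66 ± 4.27 TPM. In all 8 libraries Eif4ebp1 was above Khdrbs1, Rps6kb1 above Rictor and Mlst8 above Khdrbs3. Of these neighbouring pairs only the first 2 had ranges that did not overlap, and the order within the band is not resolved.

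**Figure D1:**
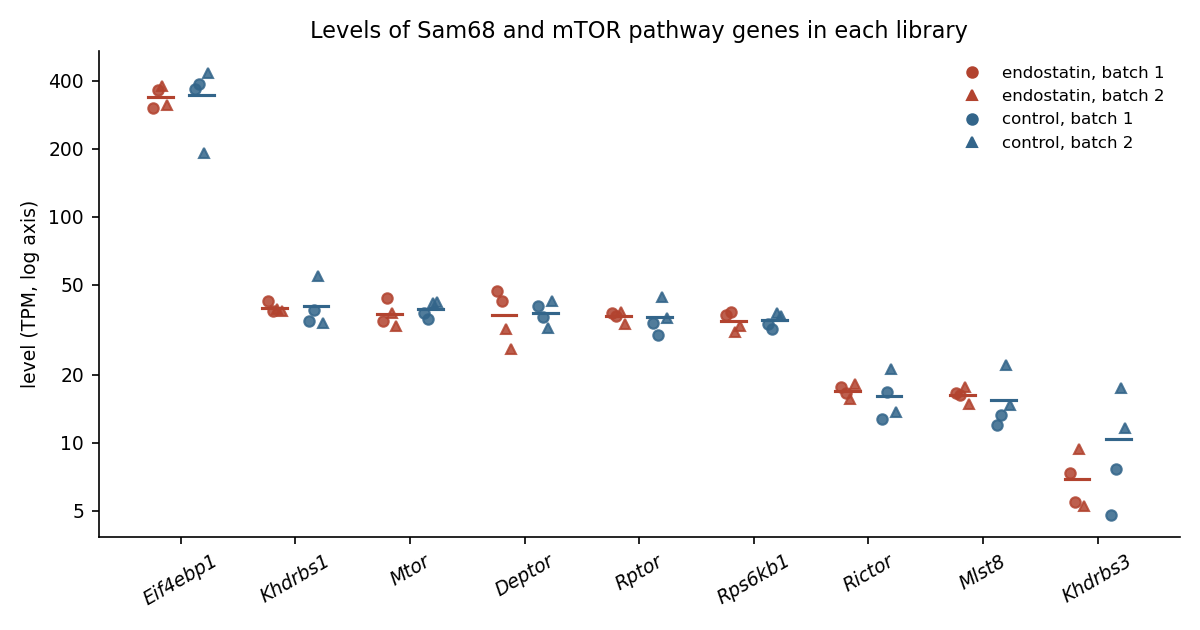
Level in TPM (log axis) of each gene in each library, genes ordered by their mean, endostatin in red on the left and control in blue on the right, circles for batch 1 and triangles for batch 2, with a line at the group mean. The groups overlap for every gene, and the lowest Eif4ebp1 value (191 TPM) and the highest Khdrbs3 value (17.6 TPM) both come from control 3.

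Khdrbs1 itself was at 79.4, 70.0, 69.6 and 66.0 CPM in endostatin libraries 1 to 4, against 68.5, 72.8, 84.5 and 64.0 CPM in control libraries 1 to 4. The highest library was control 3 and the lowest control 4, so the endostatin values lay inside the control range. Its log2 fold change, endostatin minus control, was -0.03 ± 0.11 (SE), with a 95% interval of -0.28 to 0.23 and an adjusted p of 1.00 in edgeR. The interval corresponds to a ratio of 0.826 to 1.17. Within batches the log2 fold change was 0.08 ± 0.15 in batch 1 and -0.13 ± 0.15 in batch 2.

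Khdrbs1-201, which codes for Sam68, held 66.8 ± 6.66% of the gene's TPM in endostatin libraries and 62.8 ± 5.11% in control libraries (SD, n = 4 each). Khdrbs1-202 has the same coding bases with further exons after them and is annotated as a target of nonsense-mediated decay, the pathway that removes such messengers. Its share was 15.8, 30.2, 28.7 and 30.3% in endostatin libraries and 20.5, 28.3, 31.7 and 38.6% in control libraries. Endostatin 1 was the lowest of all and control 4 the highest, and the groups overlapped. The intron-retaining Khdrbs1-203 and Khdrbs1-204 held 3.89 ± 0.185% and 3.08 ± 0.605% in endostatin libraries, against 3.93 ± 1.15% and 3.53 ± 1.99% in control libraries. The share of TPM in a gene is used here as the measure of transcript choice, and it was tested on estimated counts with edgeR's test of exon or transcript usage.

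Khdrbs3 codes for a close relative of Sam68 that also binds RNA. It was at 6.94, 5.48, 6.20 and 5.09 CPM in endostatin libraries, against 5.18, 6.01, 9.68 and 6.58 CPM in control libraries. Control 3 stood above the other 7 libraries, which lay close together. The log2 fold change was -0.19 ± 0.22, with an interval of -0.70 to 0.33, and was 0.15 ± 0.28 within batch 1 and -0.53 ± 0.28 within batch 2. With length offsets it was -0.50. Khdrbs3-201 held most of the gene's TPM in 7 libraries and 45.1% in control 4, and the short Khdrbs3-205 took 36.3% in endostatin 3, against 27.5, 40.0 and 54.9% in control 2, 3 and 4, and was listed at 0 in the other 4 libraries. These shares rest on 6.25 to 20.2 estimated counts of Khdrbs3-205 per library where it was found, and Khdrbs3-203 held at most 5.44% in any library. With only Khdrbs3-201 past the count filter, no share of this gene could be tested.

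Mtor was at 167, 195.5, 169 and 138 CPM in endostatin libraries, against 189, 171, 144 and 197 CPM in control libraries. The lowest values came from endostatin 4 and control 3, the libraries with the high oviduct and uterus markers, and the groups overlapped over nearly their whole range. The log2 fold change was -0.07 ± 0.13, with an interval of -0.38 to 0.24, a ratio of 0.771 to 1.18. It was 0.01 ± 0.20 within batch 1 and -0.15 ± 0.20 within batch 2.

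Mtor-202, the full-length messenger, held 90.3 ± 4.51% of Mtor TPM in endostatin libraries and 87.2 ± 6.77% in control libraries. The intron 5 transcript Mtor-201 had 0, 42.5, 19.9 and 27.6 estimated counts in endostatin libraries, against 18.5, 18.7, 47.6 and 21.6 in control libraries. As shares of Mtor TPM these were 0, 9.29, 6.24 and 10.3% in endostatin libraries, against 5.78, 6.39, 15.7 and 5.80% in control libraries. The extremes lay on opposite sides, with endostatin 1 listed at 0 and control 3 at the top, and the other 6 libraries were between 5.78 and 10.3%. Its log2 share change in edgeR was -0.31, with an unadjusted p of 0.681 and an adjusted p of 1. In a limma fit of the logit of the share the change was -1.36 on the log2 odds scale with an interval of -4.52 to 1.80, which leaves room for a large change in either direction. Leaving out control 3 gave a log2 share change of 0.07, and leaving out endostatin 1 gave 0.05. Reads from unspliced RNA can count toward Mtor-201, and their part in these values was not tested. Salmon divides the reads that Mtor transcripts share, so the listed 0 in endostatin 1 does not show that Mtor-201 is absent. In endostatin 1, Mtor-203, which also enters intron 5, had 16.3 estimated counts.

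Mtor-203 keeps introns 2 and 3 whole and runs 217 bases into intron 5. It held 1.68, 2.31, 3.13 and 0.81% in endostatin libraries, against 1.37, 1.78, 1.82 and 0.80% in control libraries. The highest 2 values were from endostatin libraries, and the lowest in each group, both from replicate 4, were alike. The log2 share change was 0.52 with an unadjusted p of 0.519 and an adjusted p of 1, and it was 0.056 without endostatin 3 and 0.26 without control 4. Summed, the transcripts that enter intron 5 held 8.44 ± 4.61% of Mtor TPM in endostatin libraries and 9.85 ± 5.12% in control libraries, so their means differed by less than the spread within either group. Mtor-204, annotated as a retained-intron transcript, held at most 5.28% in any library and was below the count filter.

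The short form Rps6kb1-202 held 5.41, 5.69, 4.76 and 5.84% of Rps6kb1 TPM in endostatin libraries, against 5.77, 6.51, 6.74 and 4.77% in control libraries. All 8 values lay between 4.76 and 6.74%, and the lowest value of each group was nearly the same. Its log2 share change was -0.07 with an unadjusted p of 0.912 and an adjusted p of 1 in edgeR. The limma fit gave -0.13 on the log2 odds scale, with an interval of -0.62 to 0.36. The full-length Rps6kb1-207 held 37.5 ± 2.70% in endostatin libraries and 39.1 ± 5.80% in control libraries. Of the 32 transcripts of these genes that could be tested for a changed share none was called, where 0.0741% of the 37783 tested transcripts were called.

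**Figure D2:**
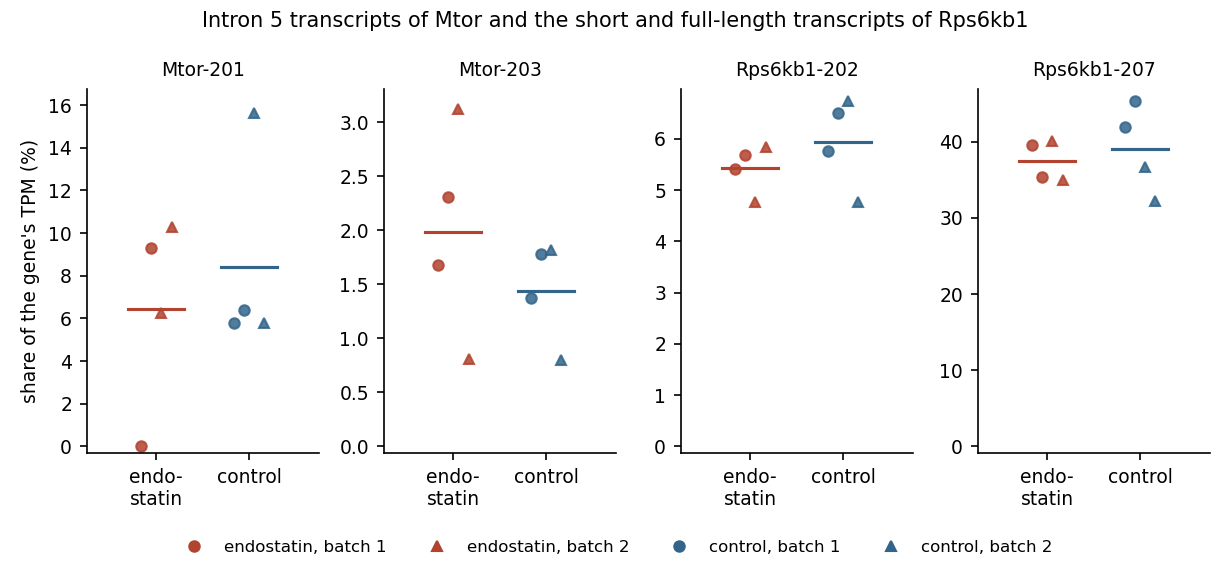
Share of the gene's TPM in percent for Mtor-201, Mtor-203, Rps6kb1-202 and Rps6kb1-207, endostatin libraries in red on the left and control libraries in blue on the right of each panel, circles for batch 1, triangles for batch 2, lines at group means. Mtor-201 spreads from a listed 0% in endostatin 1 to 15.7% in control 3, while Rps6kb1-202 stays between 4.76 and 6.74%.

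Rptor codes for raptor, which brings substrates to mTORC1. It was at 100.4, 96.0, 98.0 and 88.3 CPM in endostatin libraries, against 102, 89.6, 99.4 and 102.5 CPM in control libraries. The libraries lay within a narrow range and no group stood apart. The log2 fold change was -0.04 ± 0.08, with an interval of -0.23 to 0.15, and was 0.04 ± 0.12 within batch 1 and -0.12 ± 0.12 within batch 2. The full-length Rptor-201 held 47.6 ± 5.36% of the TPM in endostatin libraries and 51.3 ± 3.03% in control libraries, and the 6 transcripts with retained introns together held 40.8 ± 3.95% and 41.7 ± 1.72% in endostatin and control libraries. Most of that came from Rptor-203, with 22.8 ± 5.61% in endostatin libraries and 24.2 ± 3.69% in control libraries.

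Rptor-211, a 33-exon transcript annotated for nonsense-mediated decay, held 5.74, 6.54, 9.78 and 2.87% in endostatin libraries, against 0, 6.42, 2.04 and 2.57% in control libraries. In batch 2 both endostatin libraries were above both control libraries, and in batch 1 control 2 lay between the endostatin libraries. The log2 share change was 1.31 with an unadjusted p of 0.0207 and an adjusted p of 1 in edgeR. The limma fit gave 1.98 on the log2 odds scale, with an interval of -0.86 to 4.82 and an unadjusted p of 0.142. The level of Rptor-211 had a log2 fold change of 1.27 ± 1.045, with an unadjusted p of 0.262 in edgeR. Rptor-211 and Mlst8-210, described below, were the 2 of 32 tested transcripts with an unadjusted p under 0.05 in edgeR's test of shares, against 1.72% of all tested transcripts. Rptor-212, a short retained-intron transcript, was the only one of the 54 transcripts whose shares did not overlap, at 4.66, 3.81, 3.47 and 4.18% in endostatin libraries and 2.40, 1.96, 2.88 and 2.21% in control libraries. It had 2.15 to 8.30 estimated counts per library, did not pass the count filter, so that it has no test. None of the 32 tested transcripts had groups that did not overlap, against 2.21% of all tested transcripts. Rptor-202, Rptor-207 and Rptor-209 held at most 2.88% in any library, and Rptor-204, Rptor-205, Rptor-206, Rptor-208 and Rptor-210 had unadjusted p values of 0.361 to 0.900.

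Rictor codes for the subunit that defines mTORC2. It was at 65.8, 65.0, 54.7 and 69.6 CPM in endostatin libraries, against 56.6, 73.8, 75.1 and 53.2 CPM in control libraries. Control values lay both above and below the endostatin ones. Endostatin minus control, the log2 fold change was -0.02 ± 0.14 with an interval of -0.35 to 0.31, and it was 0.05 with length offsets. Within batch 1 it was 0.004 ± 0.22, and within batch 2 it was -0.05 ± 0.22. The full-length Rictor-201 held 56.8 ± 3.49% of the TPM in endostatin libraries and 60.3 ± 4.91% in control libraries. The 4 retained-intron transcripts, Rictor-202 to Rictor-205, together held 44.1, 41.6, 47.5 and 39.4% in endostatin libraries, against 38.2, 34.6, 39.6 and 46.3% in control libraries. Control 1 and control 2 were below all endostatin libraries, control 3 and control 4 lay inside their range, and the lowest unadjusted p of the 4 transcripts was 0.448.

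Mlst8 codes for a subunit of both complexes that binds the kinase domain of mTOR. It was at 17.9, 17.3, 18.3 and 21.0 CPM in endostatin libraries, against 16.9, 18.5, 23.4 and 21.5 CPM in control libraries. The highest was control 3, and the groups overlapped. Its log2 fold change was -0.10 ± 0.10 with an interval of -0.33 to 0.13, and it was 0.07 with length offsets. It was -0.01 ± 0.14 within batch 1 and -0.19 ± 0.14 within batch 2.

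The share with the lowest p value among these genes was that of Mlst8-210. On the minus strand of chromosome 17, Mlst8-201, Mlst8-202 and Mlst8-210 differ at the start of exon 2, which is 159, 139 and 45 bases long in them. Mlst8-210 codes over 813 bases, against 978 in Mlst8-201 and Mlst8-202. Its shorter exon 2 leaves out the first 84 coding bases of Mlst8-201. Those bases are the capitals in the coding part of exon 2 of Mlst8-201 (chr17:24478365-24478448), and the lower-case bases are kept in all 3 transcripts.
Mlst8-201: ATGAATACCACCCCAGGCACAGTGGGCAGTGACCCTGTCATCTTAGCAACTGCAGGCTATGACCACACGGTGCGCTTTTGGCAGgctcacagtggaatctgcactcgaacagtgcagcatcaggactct
Mlst8-210 held 4.22% in endostatin 1 and was listed at 0 in the other 3 endostatin libraries, against 25.1, 16.6, 10.8 and 0% in control libraries 1 to 4. The endostatin values were low throughout, but control 4 was also at 0. Salmon divides the reads that these transcripts share, so a listed 0 does not show that Mlst8-210 is absent. The log2 share change was -3.97 with an unadjusted p of 0.000506 and an adjusted p of 0.354, and the limma fit gave -3.59 on the log2 odds scale with an interval of -6.76 to -0.41 and an adjusted p of 1.00. The level of Mlst8-210 was also the only transcript level of the 34 tested with an unadjusted p under 0.05 (0.0498, adjusted p 1.00, edgeR), where 0.00464% of 43092 tested transcripts were called and 2.47% had an unadjusted p under 0.05. Mlst8-202 held 14.6 ± 3.99% in endostatin libraries and 11.3 ± 7.65% in control libraries, and Mlst8-201 22.4 ± 11.02% and 22.5 ± 2.02% in endostatin and control libraries. All coding transcripts of Mlst8 together held 60.4 ± 11.9% in endostatin libraries and 70.1 ± 11.7% in control libraries. Mlst8-203, Mlst8-208 and Mlst8-209 had unadjusted p values of 0.289 to 0.999, and Mlst8-204, Mlst8-206 and Mlst8-207 were below the count filter.

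Deptor codes for a protein that binds mTOR and inhibits both complexes. It was at 231.5, 214, 149 and 119 CPM in endostatin libraries, against 220.0, 186.5, 140 and 219 CPM in control libraries. Both endostatin libraries of batch 2 were below both of batch 1, while control 3 was below, and control 4 between, the control libraries of batch 1. Over all libraries the log2 fold change was -0.14 ± 0.19 with an interval of -0.57 to 0.29, and was 0.13 ± 0.24 within batch 1 and -0.42 ± 0.24 within batch 2. The difference between these, -0.56 ± 0.34, had an adjusted p of 0.997 in edgeR's test of the interaction.

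Almost all Deptor TPM belonged to Deptor-202. Deptor-201 begins at another first exon, 125 bases long, and its first coding bases therefore differ. The capitals below are the coding part of the first exon of Deptor-201 (chr15:55133475-55133560) and of Deptor-202 (chr15:55112498-55112619), both on the plus strand, and the lower-case bases are the shared start of exon 2.
Deptor-201: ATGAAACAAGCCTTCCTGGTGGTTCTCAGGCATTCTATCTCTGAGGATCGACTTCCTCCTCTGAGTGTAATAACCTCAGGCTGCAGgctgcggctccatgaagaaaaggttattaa
Deptor-202: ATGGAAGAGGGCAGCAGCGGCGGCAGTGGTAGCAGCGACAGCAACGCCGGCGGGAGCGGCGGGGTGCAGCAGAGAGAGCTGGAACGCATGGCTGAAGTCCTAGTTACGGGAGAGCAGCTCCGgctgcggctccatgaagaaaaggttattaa
Deptor-201 was found in endostatin 3, with 71.9 estimated counts and 6.68% of the TPM, and in endostatin 4, with 48.8 estimated counts and 5.79%, and was listed at 0 in the other 6 libraries. Both libraries are the endostatin libraries of batch 2, and neither control library of that batch had it. Deptor-201 was below the count filter, so no test was made, and a listed 0 does not show that a transcript is absent, since Salmon divides the reads that transcripts share.

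**Figure D3:**
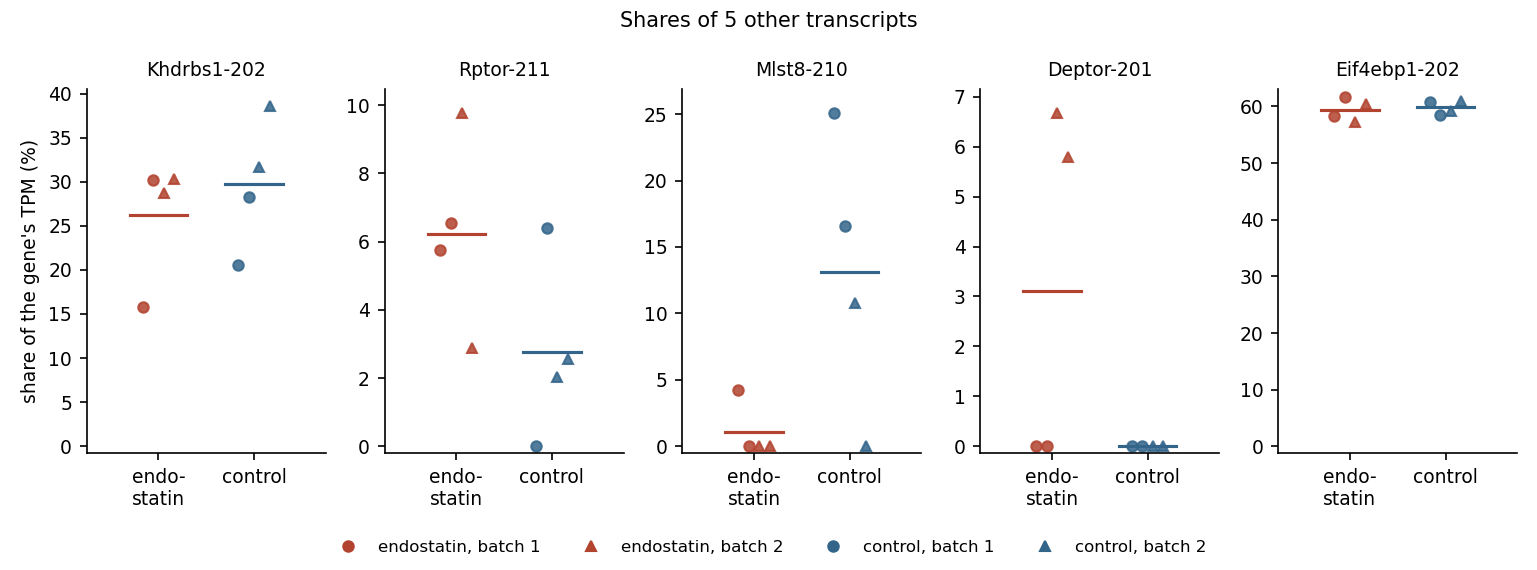
Share of the gene's TPM in percent for Khdrbs1-202, Rptor-211, Mlst8-210, Deptor-201 and Eif4ebp1-202, endostatin libraries in red on the left and control libraries in blue on the right of each panel, circles for batch 1, triangles for batch 2, lines at group means. Deptor-201 is above 0 in endostatin 3 and endostatin 4, Mlst8-210 is at 0 in 3 endostatin libraries and in control 4, and Eif4ebp1-202 stays between 57.2 and 61.6% in both groups.

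Rps6kb1, the S6K1 gene, was at 68.5, 66.1, 57.6 and 54.8 CPM in endostatin libraries, against 72.6, 70.4, 56.0 and 65.6 CPM in control libraries. In batch 1 both endostatin libraries were below both control libraries, and in batch 2 control 3 lay between the endostatin libraries. The log2 fold change was -0.10 ± 0.08 with an interval of -0.28 to 0.08, a ratio of 0.826 to 1.05. It was -0.09 ± 0.12 within batch 1 and -0.11 ± 0.12 within batch 2, so Rps6kb1 and Mlst8 were the 2 genes with the same sign in both batches. The retained-intron transcript Rps6kb1-201 held 30.8 ± 1.81% of the TPM in endostatin libraries and 31.9 ± 5.27% in control libraries, nearly as much as the full-length form. Rps6kb1-204 and Rps6kb1-206 had unadjusted p values of 0.990 and 0.395, and Rps6kb1-203 and Rps6kb1-205 were below the count filter.

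Eif4ebp1 codes for 4E-BP1, which holds back the start of translation until mTORC1 phosphorylates it. It was at 193, 228, 240.5 and 186 CPM in endostatin libraries, against 250.2, 258, 106 and 282 CPM in control libraries. Control 3 was lowest by a wide margin and the other 3 control libraries were above all endostatin libraries. Over all libraries the log2 fold change was -0.07 ± 0.28 with an interval of -0.72 to 0.58, the widest of the 9. It was -0.27 ± 0.41 within batch 1 and 0.14 ± 0.41 within batch 2, and -0.34 when control 3 was left out, with an adjusted p of 0.806. Control 3 also had the lowest sum of adipocyte markers, at 13430 TPM.

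**Figure D4:**
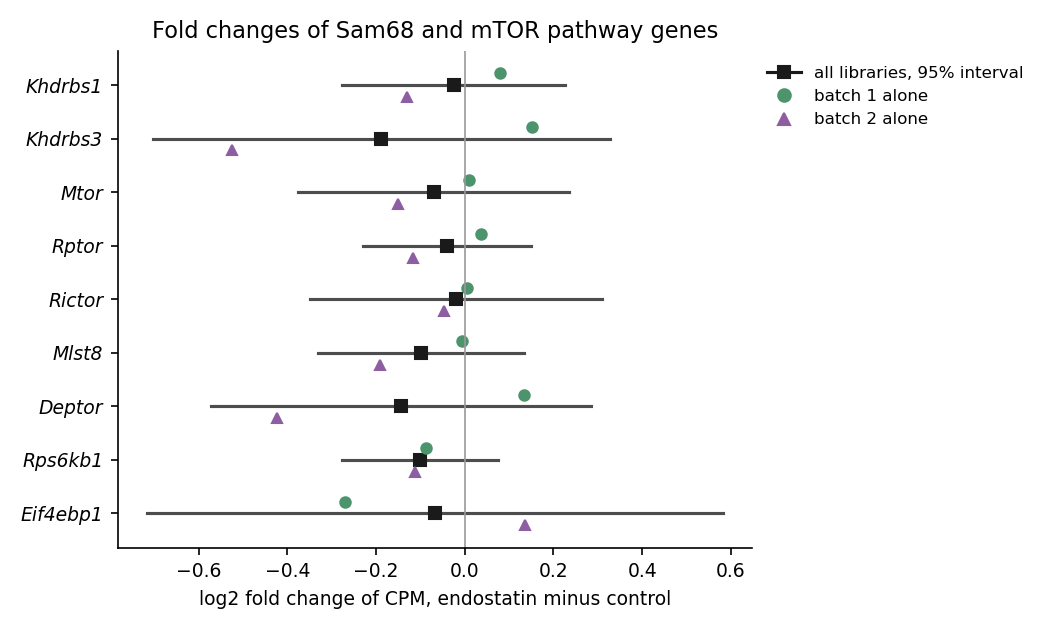
Log2 fold change of CPM, endostatin minus control, for each gene: squares with bars are the estimate and 95% interval over all 8 libraries, circles the estimate within batch 1 and triangles within batch 2. Every interval crosses 0, and 7 of the 9 genes have estimates of opposite sign in the batches.

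The protein-coding Eif4ebp1-201 held 40.6 ± 2.01% of Eif4ebp1 TPM in endostatin libraries and 40.1 ± 1.20% in control libraries. The rest belonged to Eif4ebp1-202, a non-coding transcript of 798 bases that joins 3 exons of its own to the last exons of the coding form. The capitals below are the last 60 bases before the shared exon in Eif4ebp1-201 (chr8:27260491-27260550) and Eif4ebp1-202 (chr8:27267030-27267089), on the plus strand, and the lower-case bases are the start of that exon.
Eif4ebp1-201: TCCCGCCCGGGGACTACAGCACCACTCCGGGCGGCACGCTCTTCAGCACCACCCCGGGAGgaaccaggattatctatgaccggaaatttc
Eif4ebp1-202: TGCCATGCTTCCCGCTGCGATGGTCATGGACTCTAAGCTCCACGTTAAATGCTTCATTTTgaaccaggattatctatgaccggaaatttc
Only 199 bases of Eif4ebp1-202 are its own and 599 are shared with the coding form. Its share was 58.3, 61.6, 57.2 and 60.5% in endostatin libraries and 60.7, 58.5, 59.3 and 61.0% in control libraries. The shares were nearly constant although the level of the gene varied, and the log2 share change was -0.03 with an unadjusted p of 0.933 and an adjusted p of 1.

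By labelled batch, none of the 9 was called between batch 2 and batch 1, where 0.0395% of genes were called, and 3 had an unadjusted p under 0.05, against 9.96% of tested genes. Rps6kb1 was lower in batch 2 by a log2 difference of -0.25 ± 0.08, Deptor by -0.46 ± 0.19, and Mlst8 was higher by 0.25 ± 0.10, with adjusted p values of 0.490, 0.499 and 0.499 in edgeR. None of the 9 had an unadjusted p under 0.05 for the difference of the treatment effect between batches, against 3.47% of tested genes, and 0% of genes were called.

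Other genes of the pathway were taken from 5 lists with 76 genes, of which 74 were tested. None was called, against 0% of tested genes, and none had an unadjusted p under 0.05, against 3.19% of tested genes. Of these, 27 had a positive and 47 (63.5%) a negative log2 fold change, against 53.4% negative among all tested genes, and the median was -0.04, against -0.01 over all tested genes. The medians of the single lists ran from -0.06 to -0.004.

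Among 7 other subunits and assembly factors of the complexes, Prr5l, a partner of rictor, was at 22.3, 33.5, 33.1 and 25.1 CPM in endostatin libraries, against 17.6, 22.6, 19.8 and 28.7 CPM in control libraries. The log2 fold change was 0.37 ± 0.19, with an unadjusted p of 0.0927, and it was positive within both batches. Mapkap1, a core subunit of mTORC2, was at -0.07 ± 0.11, and the assembly factors Telo2 and Tti1 at -0.09 ± 0.09 and 0.02 ± 0.12. Among 17 genes upstream of mTORC1, Pik3r1, the regulatory subunit of PI3-kinase, had the largest change, -0.41 ± 0.19. It was at 549, 584, 409.5 and 396 CPM in endostatin libraries and 776, 574.5, 446 and 746 CPM in control libraries, with an unadjusted p of 0.0650. The kinases Pdpk1 and Pik3ca were at 0.08 ± 0.10 and 0.06 ± 0.07.

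Among 25 genes that carry amino acid signals to mTORC1, Sesn2, a leucine sensor, was at 27.1, 23.7, 69.8 and 89.6 CPM in endostatin libraries, against 28.8, 29.5, 43.2 and 32.1 CPM in control libraries. Both endostatin libraries of batch 2 were above every other library, and these were also the libraries with the highest sums of macrophage markers, whose part in the values was not tested. Its log2 fold change was 0.45 ± 0.27, with an unadjusted p of 0.129, and was -0.20 within batch 1 and 1.08 within batch 2. No SE is given for these within-batch values, and 0% of tested genes were called for a treatment effect that differs between batches. Fnip2, a partner of folliculin, was at 0.19 ± 0.12, Nprl3 of the GATOR1 complex at -0.23 ± 0.14 and Lamtor5 of the Ragulator complex at -0.14 ± 0.10. Among 17 substrates and translation genes, Eif4e, the factor that 4E-BP1 binds, was at -0.19 ± 0.14, Pdcd4, an inhibitor of translation, at -0.14 ± 0.10, Atg13 of the autophagy pathway at 0.10 ± 0.08 and Maf1, a repressor of RNA polymerase III, at 0.09 ± 0.10.

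Of 10 kinases, partners and splicing factors around Sam68, 8 were tested. Src and Fyn, kinases that phosphorylate Sam68, were at 0.17 ± 0.13 and 0.16 ± 0.11. Prmt1, which methylates it, was at -0.21 ± 0.15, and Srsf1 at -0.12 ± 0.09. The lowest unadjusted p among them was 0.180.

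**Figure D5:**
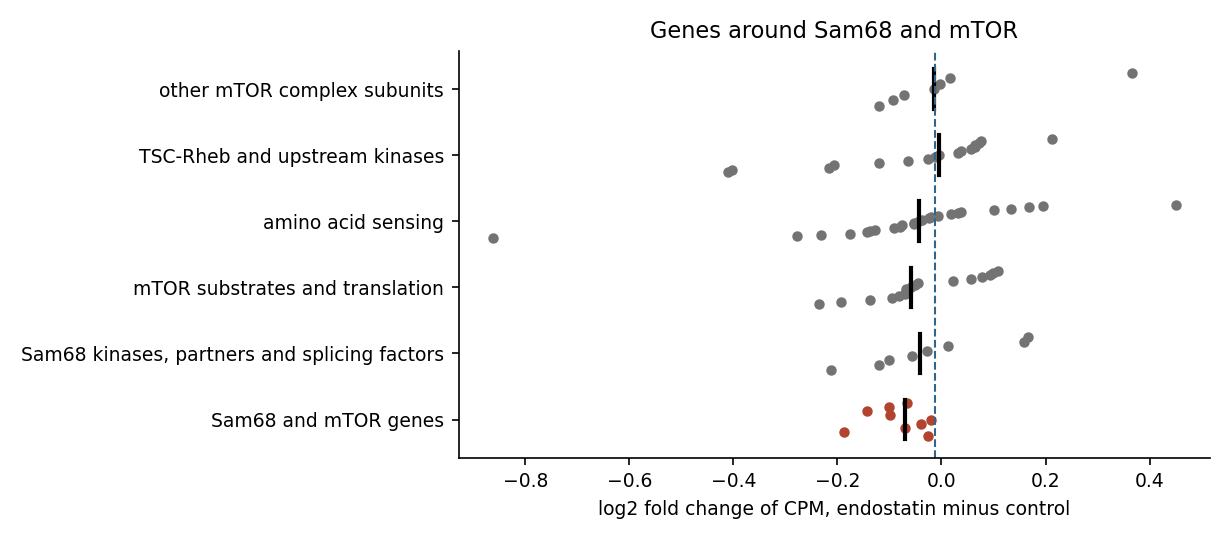
Log2 fold change of CPM, endostatin minus control, for the tested genes of the 5 pathway lists (grey points) and for the 9 genes (red points), with a black line at each median and a dashed line at the median of all tested genes. The points of every list lie on both sides of 0 and their medians sit between -0.06 and -0.004, while the 9 genes all lie below 0.

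The protein-coding genes whose CPM most resembled that of Khdrbs1 over the 8 libraries were Hnrnph1 (Pearson r 0.981 of log2 CPM), Fam107b (0.977) and Fignl1 (0.973). Those most like Mtor were Dolpp1 (0.987), Agpat1 (0.984) and Apbb2 (0.979). These are the highest of 14198 genes compared over the same 8 libraries, which share depth and tissue makeup, and they are given as a description.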

How the data were processed

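RNA was measured in 8 libraries, 4 of endostatin-treated and 4 of control mice. Per the labels' protocols, the libraries keep the strand and ribosomal RNA was removed from total RNA. Reads from unspliced RNA can therefore count toward transcripts that hold intron bases, which include Mtor-201 and the retained-intron transcripts. Per the submitters' processing notes, Salmon and the GRCm39 build were used, with no version, index or option named. The deposited files hold estimated counts and TPM per transcript as the authors' run of Salmon gave them. Identifiers were matched without version to GENCODE M21 (113710 of 115620, 98.35%), whose GRCm38 sequences and structures are shown, and all 54 transcripts had the deposited length. The description of endostatin 4 repeats the read stub of endostatin 3, and the labels were kept.

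Gene values are sums of estimated counts, rounded to whole numbers. edgeR 4.0.16 (R 4.3.3) was used with filterByExpr, TMM, terms for batch and treatment, and two-sided quasi-likelihood tests with Benjamini-Hochberg adjustment over all tested features and a threshold of 0.05. Shares were tested with edgeR's diffSpliceDGE among 37783 transcripts of 9567 genes. Intervals on the log2 odds scale come from limma 3.58.1 on the logit of the share with a pseudocount of 0.05 TPM. DESeq2 1.42.0, other size factors, filters and designs were alternatives. The fits were tested on counts simulated with the same dispersion for every feature, no batch effect and no division of shared reads. That setting is simpler than these data. The main transcript of each gene was searched with BLAST 2.17.0 for matches of at least 200 bases at 95% identity in other genes. It found Gm45422 for Khdrbs1, Bricd5 for Mlst8 and Gm9920 for Deptor, whose reads may be shared. Bases found only in the other transcripts, retained introns among them, were not searched.

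The members, lists and tests were chosen with earlier results of these data known. Named were all 9 genes, their transcripts with a mean of at least 0.1 TPM (48 of 54, the other 6 counted only), the 2 tested genes per direction with the smallest p in each pathway list, and the 3 protein-coding genes most correlated with Khdrbs1 and with Mtor. An item that this rule names is not reported here. Count limits cover counting error only.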

Additional observations from a re-analysis of the deposited data

Results flagged for a closer look

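The checks covered 114 sets of 4 libraries: each of the 9 genes and each of 48 transcript shares, in each group. The 48 are the transcripts with a mean of at least 0.1 TPM. In 11 sets the gap of 1 library to its nearest neighbour, divided by the range of the 4, exceeded Dixon's 95% critical value for 4 values. Chance marks about 1 in 20 sets of independent, continuous values. That rate does not apply to 6 of the 11, in which 3 libraries were listed at 0 and any value above 0 is marked, and shares of 1 gene are not independent of each other. In the endostatin group, Khdrbs1-201 stood high in endostatin 1 at 76.7% of the gene's TPM, against 62.4 to 64.2% in the other endostatin libraries, and Khdrbs1-202 stood low there at 15.8%, against 28.7 to 30.3%. Khdrbs3-201 was low in endostatin 3 at 58.0%, and Khdrbs3-205 was high there at 36.3% and listed at 0 in the other 3. Rptor-202 was found in endostatin 1 alone of its group, at 2.14%, and Mlst8-210 likewise at 4.22%. Mlst8-204 reached 18.1% in endostatin 2, against at most 2.36% in the others. In the control group, all 4 flags fell on control 3: Mtor-201 at 15.7%, against 5.78 to 6.39% in the other control libraries, and Rptor-202 at 2.17%, Rptor-207 at 1.63% and Mlst8-206 at 1.23%, each listed at 0 in the other 3.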

How the results depend on the processing

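None of the 9 genes or their transcripts was called in any alternative run, and of the 9, only Rps6kb1 kept its sign in all 17 alternatives. With length offsets Rictor (0.052) and Mlst8 (0.066) turned positive and Khdrbs3 moved to -0.50 and Mtor to -0.12, and the cause was not tested. With 1 library left out, or with control 3 and endostatin 4, or control 1 and control 4, left out together, the log2 fold change ran from -0.14 to 0.090 for Khdrbs1, -0.38 to 0.068 for Khdrbs3, -0.15 to 0.092 for Mtor, -0.091 to 0.021 for Rptor, -0.22 to 0.077 for Rictor, -0.25 to 0.098 for Deptor and -0.34 to 0.31 for Eif4ebp1. The log2 share change ran from -1.63 to 0.068 for Mtor-201 and from -0.22 to 0.057 for Rps6kb1-202, while Mtor-203 (0.056 without endostatin 3, to 0.88), Mlst8-210 (-8.57 without endostatin 1, to -2.70 without control 3) and Rptor-211 (0.76, to 2.76 without control 2) kept their sign.

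Over all genes, DESeq2 called 4 and edgeR 0, where 485 had an unadjusted p under 0.05. The 28 called shares became 9 among transcripts of at least 5% share, and 40 to 85 with libraries left out (74 without control 3 and endostatin 4). The 2 called transcripts became 4 with no batch term and 0 with any 1 library left out. The 6 genes called between batches became 11 with no low-count filter and 0 to 18 with 1 library left out. Same-numbered libraries correlated in their deviations at 0.21, 0.14, -0.07 and -0.29, and of the 4 numbers, 1 correlated best with its own. Such correlations cannot decide whether the replicate numbers pair the samples, since they also carry differences in tissue makeup between libraries. With a replicate block 0 genes and 22 shares were called. Depth limits the rarest transcripts, since a count of 0 allows 3 counts, or 0.126 to 0.19 CPM in a library.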
